A study of Mus musculus with 10 samples.

Results

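Ptgds, its neighbour BC029214 and 8 further genes of prostaglandin synthesis and signalling were followed in brown adipose tissue (BAT) of mice that lack STAT5 in adipocytes. The 10 genes are Ptgds, BC029214, Hpgds, Ptgs1, Ptgs2, Ptges, Ptges2, Ptges3, Ptgis and Ptgfr, of 24454 genes in the count files. Ptgds and BC029214 were picked for their strong rise in STAT5-deficient BAT, so their values are given here as a description with no test. The other 8 were listed by pathway, though with earlier results of these data known. Of the 10 genes, 8 passed the filter on low counts, which kept 13568 genes, while Ptgs2 and Ptgfr had too few counts. BC029214 is the symbol of the deposited comparison table for the gene that RefSeq and GENCODE call Paxx.

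RNA-Seq was performed on BAT of 5 control and 5 Stat5Adipoq mice, all labelled basal, with 1 library per mouse. All were male, of the C57BL/6N strain, 2 months old and fed ad libitum. In Stat5Adipoq mice the Stat5 locus was deleted by a Cre transgene under the Adipoq promoter, which is active in white and brown adipocytes, so the other cells of the tissue kept the locus. In the methods, controls are littermates that carry the floxed locus but no Cre; the labels give their genotype as wild type. The depth behind all values is 8488129 to 19514904 gene counts in a library.

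Stat5a fell from 105 ± 17.0 CPM (counts scaled to the size of the library, with TMM factors; mean ± SD, n = 5 per genotype throughout) to 17.1 ± 2.05 CPM, and Stat5b from 83.8 ± 5.51 to 21.8 ± 0.723 CPM, without overlap between the genotypes. The brown adipocyte marker Ucp1 had 59130 to 200023 counts in every library, and none of 10 brown adipocyte markers passed the test between genotypes after adjustment. At an unadjusted p under 0.05 in edgeR were 4 of the 10, beside 2064 of all 13568 tested genes. Their log2 fold changes were -0.20 for Cidea, 0.19 for Plin5, 0.19 for Pparg and 0.27 for Ppara. The library of control 3 stood apart, with 4819 CPM summed over 10 skeletal muscle markers. Control 5 had 400 CPM, the other controls 6.02 to 72.1 CPM and the Stat5Adipoq libraries 2.82 to 54.7 CPM. Without Cyp2e1, which adipose tissue also expresses, liver markers summed to 99.3 CPM in control 3 and to at most 7.05 CPM in any other library. Called values are therefore also given without control 3, and control 5 is among the libraries left out in turn. In whole tissue, fewer cells of a type and less RNA per cell cannot be told apart.

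Prostaglandins are made from arachidonic acid, which phospholipases release from membranes. The cyclooxygenases, encoded by Ptgs1 and Ptgs2, turn it into PGH2, and terminal synthases turn PGH2 into PGD2, PGE2, PGF2α, prostacyclin or thromboxane. PGD2 is made by either of a pair of unrelated enzymes, the lipocalin-type synthase encoded by Ptgds and the haematopoietic synthase encoded by Hpgds. The lipocalin-type enzyme is secreted and also binds small lipophilic molecules, and it is best known from the meninges and the cerebrospinal fluid. PGE2 acts on adipocytes through Gi-coupled EP3 receptors, which restrain lipolysis. Paxx, the product of BC029214, is a factor of DNA double-strand break repair by non-homologous end joining and is not known to act in prostaglandin synthesis.

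Ptgds and BC029214 lie next to each other on chromosome 2 and are both read from the minus strand. In GENCODE for GRCm38, Ptgds spans chr2:25466709-25470046 and BC029214 chr2:25455141-25461094, so that 5614 bases separate the start of BC029214 from the 3′ end of Ptgds. The bases before their starts are shown because the genes rose together and are neighbours, and those of Ptges because it is the tested member that changed. All are taken from RefSeq for GRCm38.p6 and written 5′ to 3′ on the minus strand, and capitals mark the letters of motifs found in them.
Ptgds, chr2:25469843-25469999: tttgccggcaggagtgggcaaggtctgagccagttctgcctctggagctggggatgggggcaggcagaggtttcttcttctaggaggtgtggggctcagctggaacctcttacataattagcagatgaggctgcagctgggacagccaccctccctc
Ptgds, chr2:25469766-25469795: gaggccaagccTGACTCAtaaatagggggt
BC029214, chr2:25461095-25461344: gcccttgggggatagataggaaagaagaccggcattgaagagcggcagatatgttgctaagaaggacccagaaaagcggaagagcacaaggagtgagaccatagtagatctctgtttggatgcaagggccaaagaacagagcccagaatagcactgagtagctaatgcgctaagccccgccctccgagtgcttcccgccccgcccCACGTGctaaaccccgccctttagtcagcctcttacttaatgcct
Ptges, chr2:30903298-30903547: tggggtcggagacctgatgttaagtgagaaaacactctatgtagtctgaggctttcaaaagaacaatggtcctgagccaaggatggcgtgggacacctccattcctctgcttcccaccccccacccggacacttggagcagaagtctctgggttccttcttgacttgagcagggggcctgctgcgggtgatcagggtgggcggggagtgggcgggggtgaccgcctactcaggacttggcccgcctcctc

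Each window ends at the 1 start that RefSeq's table holds for the gene, and other starts were not examined. For Ptgds and Ptges that start lies inside the span GENCODE gives the gene, chr2:30889471-30929863 for Ptges, because other transcripts begin further upstream. For BC029214 it lies at the end of the GENCODE span. The span RefSeq gives this gene, chr2:25455120-25462654, reaches past the window shown, so the window lies inside it. For Ptgds, 93 of the 250 bases before the RefSeq start lie in an exon of another GENCODE transcript and are shown only around the motif. STAT5 dimers bind the palindrome TTCNNNGAA, where N is any base. Searched on both strands, it was absent from the 250 bases before the start of all 9 members with an entry (none was held for Ptgis). It was also absent from the 22 windows of 20 tested genes within 200 kb of Ptgds, Ptgds and BC029214 included. Of all 32851 windows of this length, 7.02% hold it, and of those of tested genes 5.94%. These windows begin 250 bases before the start, and sequence further upstream was not analysed here.
TGACTCA, the site of AP-1 factors, stood 35 bases before the Ptgds start. It occurs in 4.46% of all windows, and among the 9 members in Ptgds alone. It is not particular to Ptgds in this region, since 4 of the 22 windows within 200 kb hold it. Besides Ptgds these are windows of Entpd2, Fbxw5 and C8g, which were not called. CACGTG, an E-box, stood 45 bases before the BC029214 start and 77 bases before that of Ptges2, and it occurs in 6.02% of all windows. The letters of these last motifs were chosen after the sequences were seen. No motif of the 3 was found before both Ptgds and BC029214.

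Ptgds rose 8.93-fold in Stat5Adipoq BAT, from 4.10 ± 0.677 to 36.6 ± 11.1 CPM. It had 42, 55, 33, 62 and 48 counts in controls 1 to 5, and 292, 429, 562, 381 and 466 counts in the Stat5Adipoq libraries 1 to 5. Scaled for depth these are 4.02, 4.99, 3.97, 3.13 and 4.39 CPM in controls and 24.5, 27.5, 51.9, 42.0 and 37.2 CPM in Stat5Adipoq BAT. The lowest Stat5Adipoq library was thus several times above the highest control, and the spread between mice was larger in Stat5Adipoq BAT, with a coefficient of variation of 30.3% against 16.5%. The log2 fold change was 3.17, with 95% confidence limits from 2.70 to 3.64. Leaving out each library in turn gave 3.01 to 3.29, and 3.17 without control 3. By size of log2 fold change Ptgds stood at place 3 of 13568 tested genes. Among the 10152 tested genes with at least 50 counts on average it stood at place 2.

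BC029214 more than doubled, from 39.1 ± 8.71 to 90.7 ± 2.29 CPM. The controls had 40.7, 45.3, 31.0, 29.3 and 49.2 CPM and the Stat5Adipoq libraries 90.2, 88.2, 94.3, 89.6 and 91.2 CPM. All Stat5Adipoq libraries lay above all controls, and here it was the controls that varied more, with a coefficient of variation of 22.3% against 2.53%. Its log2 fold change was 1.22, with 95% confidence limits from 0.94 to 1.49, and it was 1.12 to 1.31 with each library left out and 1.15 without control 3. This put BC029214 at place 35 of the tested genes and at place 13 of those with at least 50 counts. No 50-base word of the longest Ptgds or BC029214 transcript occurs in a transcript of another gene, and neither gene shares exon bases with another gene on either strand.

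**Figure D1:**
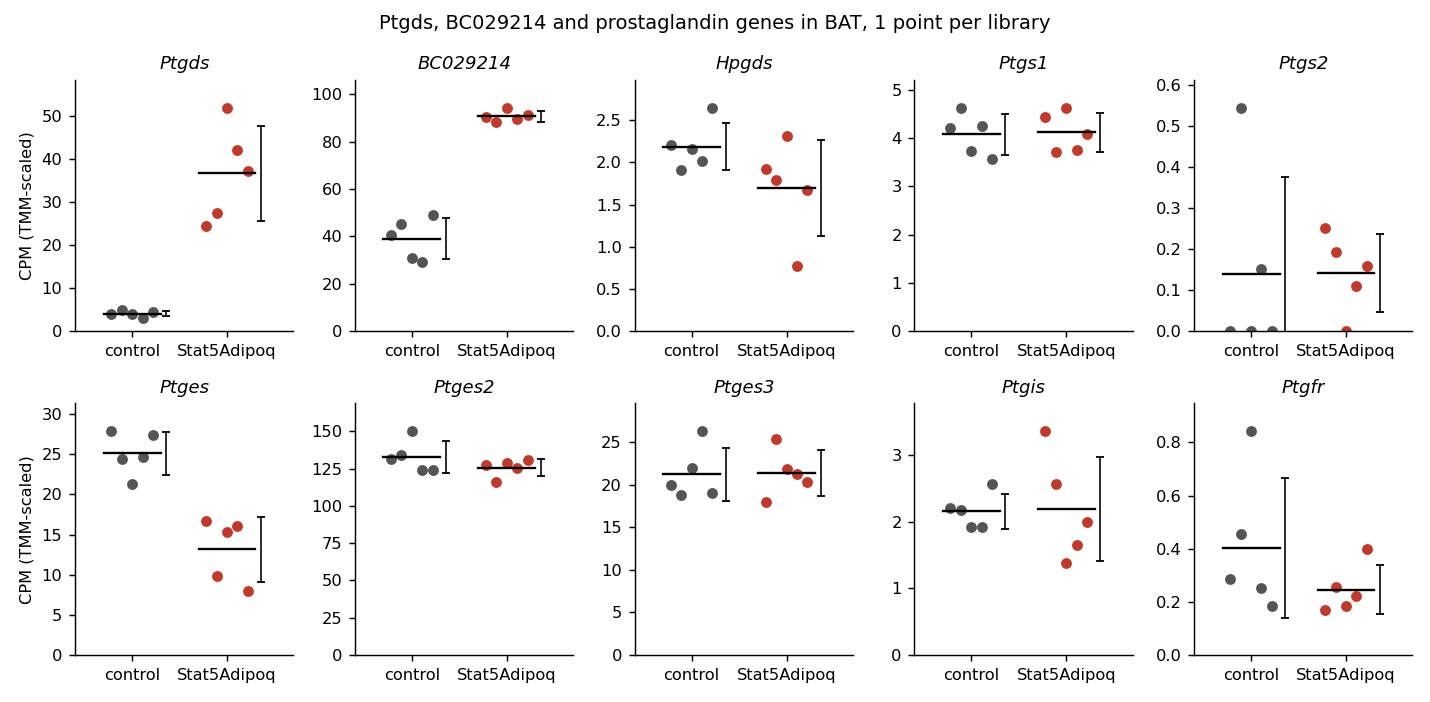
CPM (TMM-scaled, linear axes from 0) of the 10 genes, with 1 point per library, in grey for control and red for Stat5Adipoq BAT; horizontal lines are means and bars beside them SD (n = 5). Ptgds and BC029214 lie higher in every Stat5Adipoq library than in any control, Ptges lies lower in every one, and the genotypes overlap in the other 7 genes.

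Neither cyclooxygenase gene was called. Ptgs1, which encodes the constitutive COX-1, had 4.08 ± 0.429 CPM in control and 4.12 ± 0.404 CPM in Stat5Adipoq BAT, with a log2 fold change of 0.01 and 95% limits from -0.27 to 0.29. Its libraries ranged from 3.56 to 4.63 CPM in controls and from 3.72 to 4.62 CPM in Stat5Adipoq BAT. Ptgs2, which encodes the inducible COX-2, was close to undetected, with 0, 6, 0, 3 and 0 counts in controls and 3, 3, 0, 1 and 2 counts in Stat5Adipoq libraries. An exact two-sided permutation test of its log2 CPM gave p = 0.67, and a difference was not detectable at this depth.

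Of the 6 members that were listed by pathway and tested, only Ptges was called, and it fell. This is 16.7% of the 6 genes and rests on 1 gene, beside 2.71% of all tested genes called in either direction, 1.4% called higher and 1.31% called lower. Ptges encodes the inducible microsomal PGE2 synthase. It had 27.9, 24.4, 21.3, 24.7 and 27.4 CPM in controls and 16.7, 9.81, 15.3, 16.1 and 7.91 CPM in Stat5Adipoq BAT. The mean went from 25.1 ± 2.65 to 13.2 ± 4.01 CPM, and the libraries of the genotypes did not overlap, which was so for 4.39% of all tested genes. The log2 fold change was -0.94 ± 0.19 (SE), with 95% limits from -1.35 to -0.54 and a p of 0.020 in edgeR's quasi-likelihood test, adjusted over all tested genes by Benjamini-Hochberg. The exact permutation test gave p = 0.0079, not adjusted over the members, which is the smallest that 5 libraries against 5 allow. This value follows from the lack of overlap and is no separate support. Ptges was called with each library left out, at adjusted p-values from 0.013 to 0.049, with 0.013 without control 3.

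The other PGE2 synthases were not called. Ptges2, which encodes a second membrane-associated synthase, had 133 ± 10.6 CPM in control and 126 ± 5.69 CPM in Stat5Adipoq BAT. Its log2 fold change was -0.08, with limits from -0.21 to 0.06, which do not overlap those of Ptges. Ptges3 encodes p23, a co-chaperone that also has PGE2 synthase activity in the cytosol. It had 21.2 ± 3.09 and 21.4 ± 2.67 CPM, a difference of 0.01 on the log2 scale with limits from -0.24 to 0.25. Its value is less certain, since 22.2% of the 50-base words of its longest transcript also occur in transcripts of Gm11893 or Ptges3-ps.

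Hpgds, the other route to PGD2, was not called. The control libraries had 2.20, 1.91, 2.16, 2.02 and 2.65 CPM and the Stat5Adipoq libraries 1.93, 1.80, 2.31, 0.771 and 1.68 CPM, which overlap. The log2 fold change was -0.35, with limits from -0.88 to 0.19 and an adjusted p of 0.56, and the exact permutation test gave p = 0.10. Ptgis, which encodes prostacyclin synthase, had 2.16 ± 0.261 and 2.19 ± 0.786 CPM and a difference of 0.04 on the log2 scale with limits from -0.48 to 0.56. The FP receptor gene Ptgfr had 2 to 7 counts per control and 2 to 5 counts per Stat5Adipoq library, too few for the test, and its exact permutation p was 0.24. Of the exon bases of Ptgis 6.1%, of those of Ptgfr 4.9% and of those of Ptgs1 3.8% are also exonic in a gene read from the other strand, and the sources used here do not state whether counting used the strand.

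Levels of different genes were compared as CPM per kb of exon, with the exon bases of all GENCODE transcripts of a gene as its length. In control BAT the order was Ptges2 at 26.3, BC029214 at 18.9, Ptges3 at 9.58, Ptges at 6.39, Ptgds at 2.49, Ptgs1 at 1.05, Ptgis at 0.840, Hpgds at 0.341, Ptgfr at 0.0596 and Ptgs2 at 0.0304 CPM per kb. Neighbours whose libraries overlapped in this order were Ptgs1 and Ptgis, and Ptgfr and Ptgs2. In Stat5Adipoq BAT BC029214 came first at 43.9, followed by Ptges2 at 24.9 and Ptgds at 22.2, then Ptges3 at 9.65 and Ptges at 3.35 CPM per kb, with the last 5 genes in the same order as in control. Ptgds thus moved from below Ptges to above it, and at 14.8 to 31.5 CPM per kb it overlapped the 23.0 to 25.8 CPM per kb of Ptges2. With the longest transcript as the length, BC029214 came before Ptges2 in control as well, and Ptgds came second in Stat5Adipoq BAT. Both lengths of Ptges2 are from GENCODE, where the gene ends at chr2:32405772, past its RefSeq end at chr2:32402740. A shorter length would raise Ptges2 per kb, so the order of Ptgds and Ptges2 is uncertain. Not divided by length, Stat5Adipoq BAT had 36.6 CPM for Ptgds and 126 CPM for Ptges2.

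Within each library the level of Ptgds was set against that of Ptges, taken because it is the PGE2 synthase that was called. Per kb of exon the ratio of Ptgds to Ptges was 0.344, 0.487, 0.444, 0.303 and 0.381 in controls 1 to 5, and 3.50, 6.68, 8.07, 6.22 and 11.2 in Stat5Adipoq libraries 1 to 5. Ptges was therefore the higher of the pair in every control, and Ptgds in every Stat5Adipoq library. Of the summed level of all 5 PGD2 and PGE2 synthases, Ptges2 and Ptges3 included, Ptgds made up 4.23% to 6.79% in controls and 28.1% to 44.3% in Stat5Adipoq BAT. This share would be smaller with a shorter length for Ptges2. Per kb of exon Ptgds exceeded Hpgds already in controls, by 6.04 to 10.2 times, and in Stat5Adipoq BAT by 49.5 to 212 times. The highest value was that of Stat5Adipoq 4, where Hpgds had 7 counts. The size of these ratios depends on the lengths, 6425 bases for Hpgds and 1649 for Ptgds. A shorter length for Hpgds would make them smaller, and its longest transcript, of 1 exon, has 3891 bases. Not divided by length, controls had 3.13 to 4.99 CPM for Ptgds and 1.91 to 2.65 CPM for Hpgds. Stat5Adipoq BAT had 24.5 to 51.9 CPM for Ptgds and 0.771 to 2.31 CPM for Hpgds. The ratios of this paragraph contain Ptgds and are a description, with no test.

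**Figure D2:**
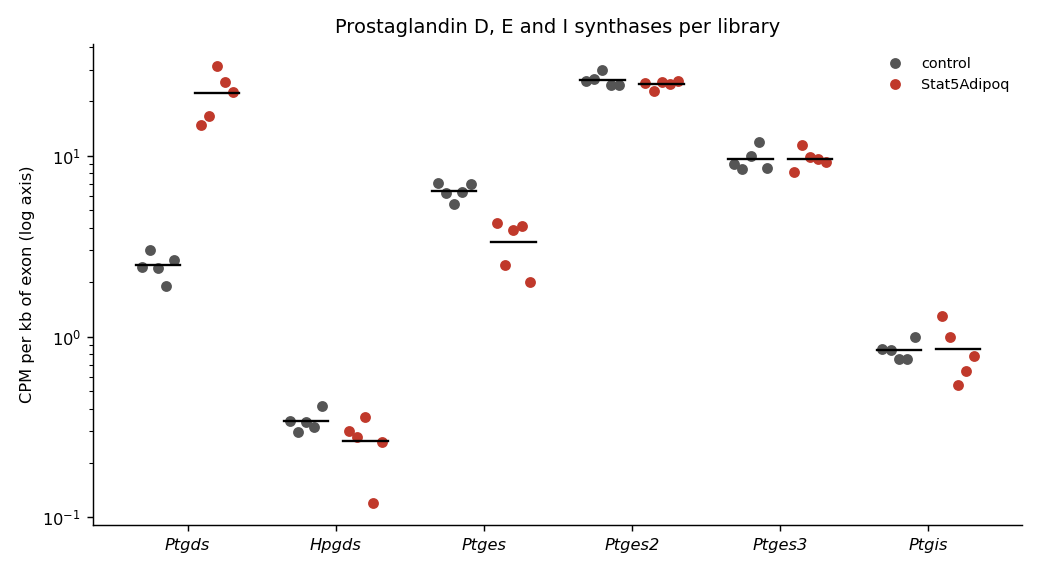
CPM per kb of exon (log axis) of the PGD2, PGE2 and prostacyclin synthase genes, with 1 point per library, in grey for control and red for Stat5Adipoq BAT, and lines at the means. Ptgds moves from 1.90 to 3.03 in controls up to 14.8 to 31.5 CPM per kb, while Ptges moves down from 5.41 to 7.09 to 2.01 to 4.24 CPM per kb. At the GENCODE lengths used, Ptgds overlaps Ptges2 in Stat5Adipoq BAT.

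The genes around Ptgds and BC029214 were examined next, with 32 further genes within 200 kb by RefSeq positions. Of these, 20 were tested and 1 was called, Abca2, which is 5.00% of them beside 2.71% of all tested genes. The median log2 fold change of the 20 genes was 0.02, against -0.003 over all tested genes. Abca2 encodes a lipid transporter of the ABC family that is found in late endosomes and lysosomes. It rose from 239, 217, 180, 185 and 235 CPM in controls to 283, 309, 289, 310 and 292 CPM in Stat5Adipoq libraries, with no overlap. The log2 fold change was 0.49 ± 0.08 (SE), with limits from 0.31 to 0.67 and an adjusted p of 0.0089 by edgeR, and it was called in each fit with a library left out, at adjusted p-values of 0.0082 to 0.029, with a difference of 0.44 without control 3.

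Abca2 lies on the plus strand at chr2:25428703-25448540, with its 3′ end 6600 bases from the 3′ end of BC029214, so that the genes converge. Clic3, of the chloride intracellular channel family, lies within the body of BC029214 on the opposite strand and shares no exon bases with it. Clic3 had 2.57 ± 1.10 CPM in control and 4.31 ± 1.77 CPM in Stat5Adipoq BAT, a difference of 0.75 on the log2 scale with limits from 0.03 to 1.46 that did not pass the adjustment (adjusted p = 0.31). Entpd2 at -0.35 (limits -0.69 to -0.01, adjusted p = 0.31 by edgeR) and Ssna1 at -0.22 (limits -0.39 to -0.05, adjusted p = 0.19 by edgeR) likewise had limits that left out 0 and did not pass, with the opposite sign, and 28.8% of the exon bases of Entpd2 are shared with Npdc1. The other tested genes within 200 kb were not called. On the side of Abca2, Npdc1 had a log2 fold change of 0.05, with limits from -0.19 to 0.28. On the other side of Ptgds, C8g, the nearest tested gene, had 0.18 with limits from -0.12 to 0.48, and Fbxw5 had 0.01 with limits from -0.12 to 0.15. Lcn12, a lipocalin gene between Ptgds and C8g, had 1 count over all 10 libraries.

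**Figure D3:**
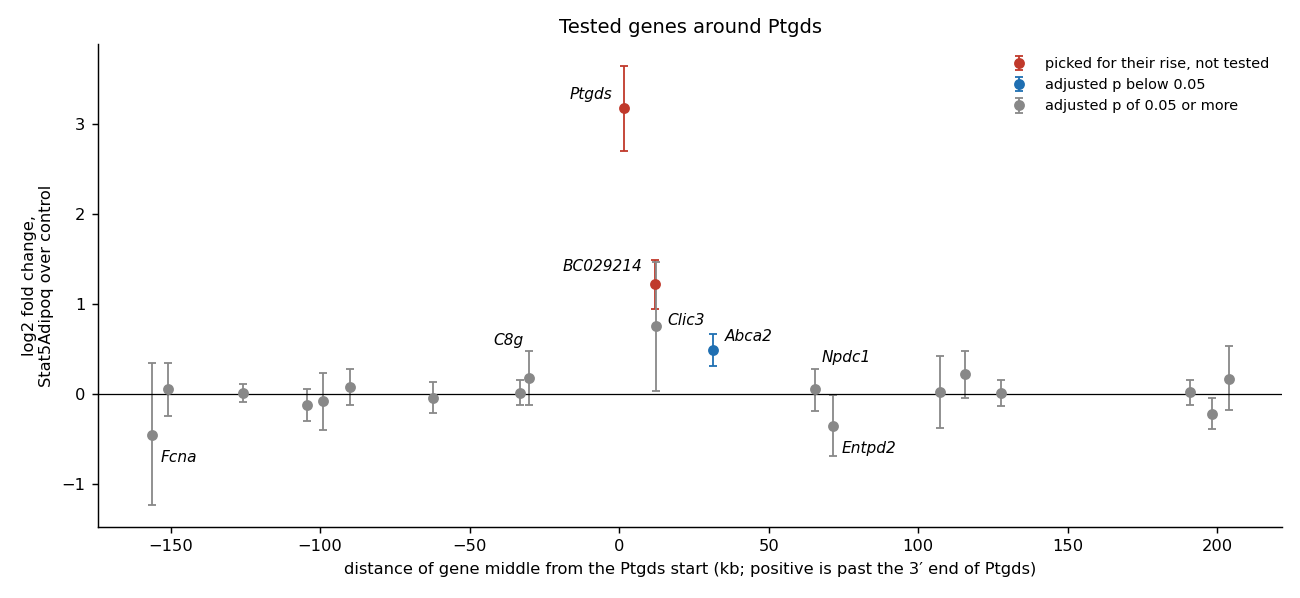
Log2 fold change (Stat5Adipoq over control) with 95% confidence limits of Ptgds, BC029214 and 19 of the 20 tested genes around them that have a GENCODE position, against the distance of the middle of each gene from the Ptgds start in kb. Ptgds at 3.17, BC029214 at 1.22, Clic3 at 0.75 and Abca2 at 0.49 lie side by side, and Abca2 is the called gene among those not picked for their rise.

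How far these genes moved together from mouse to mouse was described by the correlation of their log2 CPM deviations from the genotype means over the 10 libraries, which share depth and tissue composition. Ptgds and BC029214 had a Pearson r of 0.45 (Spearman rho 0.59). By this measure BC029214 took place 1133 of 10151 genes in likeness to Ptgds. The genes most like Ptgds were Ptpru and Wwc2 at 0.95, and Urb1, Sbk1 and Inpp1 at 0.94. For BC029214 they were Gstt3 at 0.98, Ccdc53, A530016L24Rik and Rasl12 at 0.96, and Hps6 at 0.94. These are the highest values among 10151 genes over only 10 libraries, and whether they exceed chance was not tested. By Pearson r BC029214 was closer to Abca2, at 0.82, than to Ptgds, but by rho these pairs were alike, at 0.62 and 0.59. BC029214 varied mostly among controls (coefficient of variation 22.3%, against 2.53% in Stat5Adipoq BAT). Its correlations therefore rest mainly on the control libraries, control 3 included. Ptgds and Abca2 had r of 0.27 (rho 0.31). Ptgds and Ptges had r of 0.12 (rho 0.12).

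Beyond the 10 genes, 55 genes of arachidonate release, prostanoid synthesis, reception, transport and inactivation, and leukotriene synthesis were listed, of which 38 were tested. Of these, 2 rose and 1 fell, which is 7.89% beside 2.71% of all tested genes, and their median log2 fold change was -0.01. The call of Abcc4 alone held with each library left out.

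Arachidonate release held the gene that fell, 1 of 13 tested. Pla2g16, also called Plaat3, encodes the main phospholipase A2 of adipose tissue, which releases arachidonic acid for PGE2 synthesis in adipocytes. It had 358, 319, 235, 312 and 310 CPM in controls and 246, 232, 201, 184 and 177 CPM in Stat5Adipoq BAT, where only control 3 overlapped the Stat5Adipoq libraries. The log2 fold change was -0.56 ± 0.12 (SE), with an adjusted p of 0.027 by edgeR and of 0.0042 without control 3. The call was lost, at adjusted p-values of 0.060 to 0.077, without control 1, 2 or 4 or Stat5Adipoq 3, 4 or 5. Mgll, which encodes monoacylglycerol lipase and had the highest CPM of this list, had a difference of -0.01 on the log2 scale with limits from -0.21 to 0.19.

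Of 4 other prostanoid synthase genes tested, Akr1b8 rose, and of 7 genes of transport and inactivation, Abcc4 rose. Abcc4 encodes the exporter MRP4, which carries prostaglandins out of cells. It had 37.2, 44.9, 31.3, 32.8 and 36.6 CPM in controls and 59.3, 60.7, 58.6, 50.5 and 59.2 CPM in Stat5Adipoq BAT, which do not overlap. Abcc4 had a log2 fold change of 0.66 ± 0.09 (SE), with an adjusted p of 0.0032 by edgeR and of 0.00096 to 0.013 with each library left out, with 0.0036 without control 3. Akr1b8, an aldo-keto reductase gene listed here because related enzymes have PGF synthase activity, went from 17.8 ± 1.11 to 24.1 ± 3.44 CPM. Its log2 fold change was 0.44 ± 0.10 (SE), with an adjusted p of 0.036 by edgeR and of 0.034 without control 3. This call was lost, at 0.064 to 0.10, without control 1, 2, 4 or 5 or Stat5Adipoq 2, 3 or 4. Hpgd, which encodes the dehydrogenase that inactivates prostaglandins, had a difference of 0.11 on the log2 scale with limits from -0.24 to 0.47, and it is named for its role.

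None of 7 tested genes of the receptor list was called, and none of them at an unadjusted p under 0.05 in edgeR. The list includes Ptgfrn, which encodes a regulator of the FP receptor and not a prostanoid receptor itself. Ptger1, which encodes the EP1 receptor for PGE2, had 95.7 ± 17.0 and 93.9 ± 13.2 CPM. Ptger3, which encodes EP3, had 79.5 ± 24.1 and 63.3 ± 10.2 CPM, a difference of -0.33 on the log2 scale with limits from -0.73 to 0.07. The PGD2 receptor genes, named for their role after their values were seen, were close to undetected. Ptgdr had 4 counts over all 10 libraries and Ptgdr2 had 3, with at most 2 counts in any library. The 7 tested genes of the leukotriene and lipoxygenase list, which also holds the epoxide hydrolase gene Ephx2, were not called either, nor at an unadjusted p under 0.05. Among those with the highest CPM, Ephx2 had -0.13, Lta4h -0.01 and Ltc4s -0.15 on the log2 fold change scale.

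**Figure D4:**
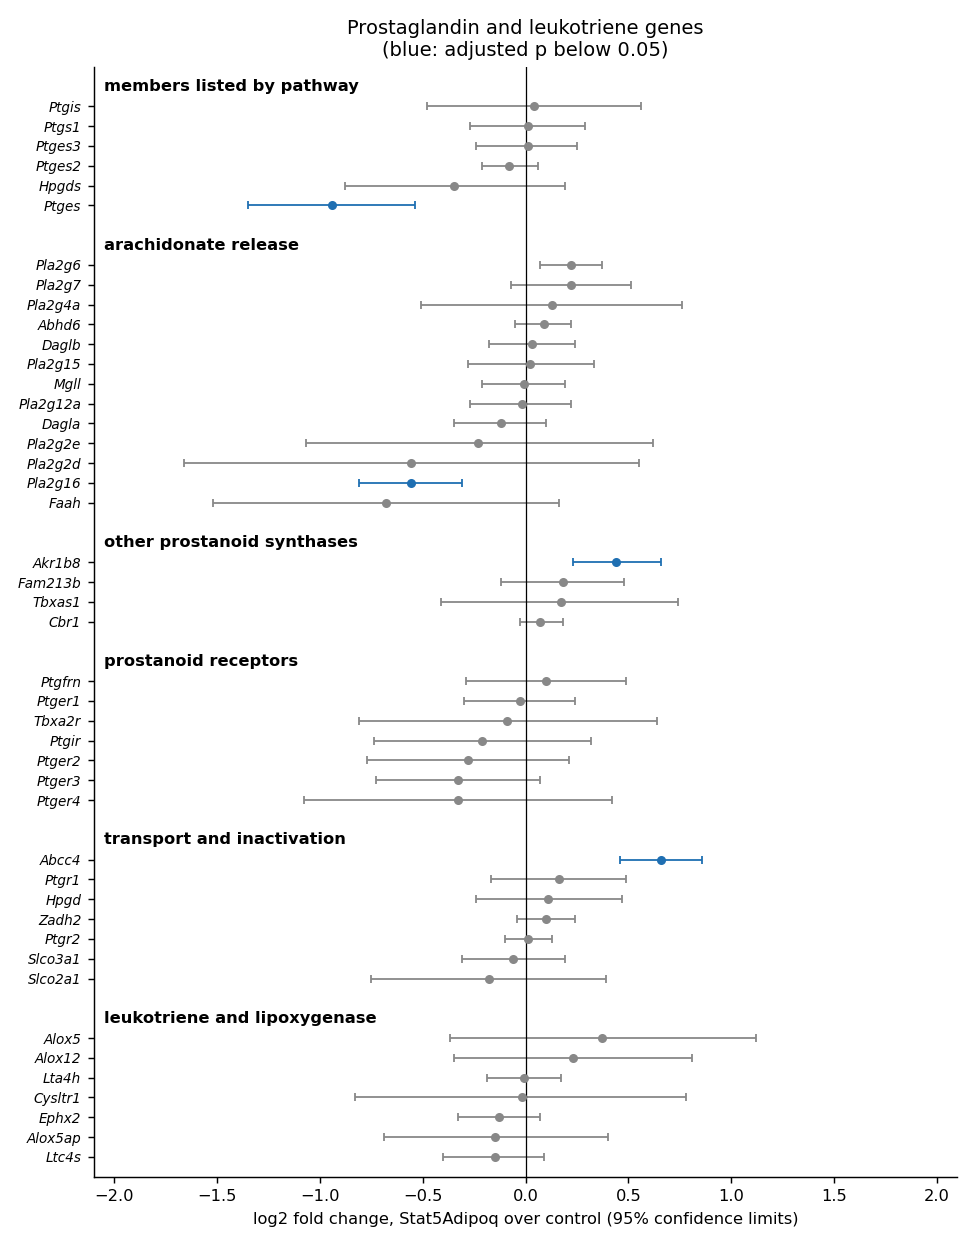
Log2 fold change (Stat5Adipoq over control) with 95% confidence limits for the 6 tested members listed by pathway and 38 further tested genes, grouped by role, with blue for an adjusted p below 0.05. Ptges at -0.94 and Pla2g16 at -0.56 are called lower and Akr1b8 at 0.44 and Abcc4 at 0.66 are called higher, and the receptor and leukotriene genes include no called gene.

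Markers of other cells that could be in or beside the tissue, some of which are known to express Ptgds or Hpgds, were examined beside these values. None of 7 tested meningeal, 7 mast cell, 10 fibroblast, 10 macrophage, 3 platelet, 10 endothelial or 8 smooth muscle markers was called. At an unadjusted p under 0.05 in edgeR were 3 meningeal, 2 mast cell, 1 macrophage and 2 endothelial markers, beside 2064 of all 13568 tested genes. The log2 fold changes were -1.33 for Bnc2, -1.11 for Aldh1a2 and 0.64 for Slc47a1 of the meningeal markers. For the mast cell markers they were 1.03 for Tpsb2 and -0.49 for Hdc. Of 10 Schwann cell markers, S100b rose, from 62.4 ± 11.1 to 131 ± 14.3 CPM (log2 fold change 1.07, adjusted p = 0.00085 by edgeR, and 1.11 without control 3), while the median of the list was -0.52. S100b is also expressed by adipocytes. The summed level of the meningeal markers was 28.8 to 49.9 CPM in controls and 28.6 to 48.0 CPM in Stat5Adipoq BAT, and Slc22a6 of this list was at 0 in all libraries. The mast cell markers summed to 46.2 to 59.1 and 42.1 to 75.4 CPM, and in the library with the highest sum Kit alone gave 48.9 CPM. The part of these cells in the values of Ptgds was not tested.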

How the data were processed

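The authors aligned single-end reads of 50 bases to GRCm38 with STAR 2.5.0b and counted them over exons with featureCounts 1.5.0-p1. The deposited counts per gene, which were not normalised by the authors, are the values used here. The strand setting is not given in the sources used here. The authors' comparison table (DESeq2 1.16.1), which holds mean normalised counts, fold changes and p-values, served only for gene symbols, and none of its values were used. Further tables of subsets of it were not used.

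Genes with a size factor normalised row sum above 45 were kept, and genotypes were compared with edgeR 4.0.16 (quasi-likelihood F test, TMM normalisation, no covariate) in R 4.3.3. The Benjamini-Hochberg method served for adjustment over all 13568 tested genes, with a threshold of 0.05, and procedures were tested on simulated data. For single members, log2 CPM (prior count 2) was compared by an exact permutation test, two-sided, and its p-values were not adjusted. Depth was 8488129 to 19514904 counts per library, and all 45 pairs of libraries differed by more than sampling noise. Each library is 1 mouse.

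Members and lists were chosen with earlier results of these data known. Named genes are the members, called genes of the lists and otherwise the 3 with the highest CPM, called genes within 200 kb of Ptgds and its nearest tested neighbours, and the 5 most similar genes. Others were named after their values were seen. Alternatives were DESeq2 1.42.0, its size factors, library size only, other filters, limma-voom 3.58.1, a replicate block and leaving out each library. Gene positions, lengths and transcripts are from GENCODE M21, and promoters from RefSeq.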

Additional observations from a re-analysis of the deposited data

Results flagged for a closer look

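In groups of 5 libraries, single values far from the others were sought for the members and the called genes of the pathway and the neighbourhood, in 28 groups, of which chance alone would give about 1.4. In 2 groups 1 library stood apart. Ptgs2 had 0.545 CPM in control 2, which is 6 counts, against 0 to 0.152 CPM in the other controls. Abcc4 had 50.5 CPM in Stat5Adipoq 4, against 58.6 to 60.7 CPM in the other Stat5Adipoq libraries, and this value was still above the highest control at 44.9 CPM.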

How the results depend on the processing

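Over all tested genes 368 were called, and 660 (326 higher, 334 lower) by DESeq2, while leaving out each library gave 185 (without Stat5Adipoq 3) to 442 (without control 3) calls. The count was outside 1.5 times, and higher, with DESeq2. It was outside 1.5 times, and lower, without control 1, 2 or 4 or Stat5Adipoq 3, 4 or 5. The 1 called member listed by pathway and the 1 called gene near Ptgds were Ptges and Abca2 under every alternative, also within 100000 and 500000 bases. The 3 pathway genes were called in all 7 other fits and 1 to 3 with each library left out. In Stat5Adipoq BAT Ptgds was at place 3 per kb of exon and at place 2 per kb of the longest transcript. Members near 0 changed sign without passing the threshold: Ptgs1 at -0.01 with library size only and -0.0011 with limma-voom (-0.03 to 0.06 with a library left out), Ptges3 at -0.01 and -0.0041 (-0.06 to 0.10), and Ptgis at -0.01 with the replicate block (-0.16 to 0.16). Replicate numbers were shared between genotypes, but same-numbered libraries did not deviate together (correlations from -0.23 to 0.09, and 2 of 5 controls correlated best with their own number). The fit with the replicate block called 273 genes, 132 of them higher, and changed none of the calls of the members, the pathway genes or the genes near Ptgds.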

Other observations

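The Ptgds protein is a lipocalin. Of 19 further genes of this family, 8 were tested and 1 was called, Orm1, which encodes an acute-phase plasma protein. This is 12.5% of those tested, a share that rests on a single gene, beside 2.71% of all tested genes called and 1.31% called lower. Orm1 fell from 86.1 ± 13.4 to 53.6 ± 5.79 CPM (log2 fold change -0.68 ± 0.11 SE, adjusted p = 0.0060 by edgeR and 0.0076 without control 3), with no overlap between genotypes. The retinol carrier gene Rbp4 had 87.4 ± 17.9 and 110 ± 11.8 CPM (adjusted p = 0.24). Of this family, 7 genes, among them Lcn3, Lcn5 and Lcn6, had no count in any library.

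The partners of the BC029214 product in DNA end joining were not called. All 9 listed genes were tested, 1 of them had an unadjusted p under 0.05 in edgeR, and their median log2 fold change was 0.06. Xrcc6, which encodes a Ku subunit, had 196 ± 28.2 and 214 ± 11.5 CPM, a difference of 0.13 on the log2 scale with limits from -0.06 to 0.33. Prkdc, which encodes the catalytic subunit of the DNA-dependent protein kinase, had 0.04 with limits from -0.16 to 0.23, and Poll, a DNA polymerase gene, had 0.11 with limits from -0.07 to 0.29.

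Of 10 liver markers, Cyp2e1, which adipose tissue also expresses, fell from 125 ± 56.5 to 39.5 ± 24.0 CPM (adjusted p = 0.037 by edgeR). The call was kept without control 5 or Stat5Adipoq 1 and lost without any other library, with adjusted p-values up to 0.11, and 0.053 without control 3.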
